A study of Mus musculus with 6 samples.

Results

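The Ikaros family of zinc finger transcription factors is described here in mouse iNKT cells, T cells with an invariant receptor that recognise lipids presented by CD1d. The members were the genes with the symbols Ikzf1, Ikzf2, Ikzf3 and Ikzf5, 4 of the 27998 genes listed for each library, and they were chosen by their symbols with the measured levels of these genes in the 3 organs already known. Levels of the members in the different organs are therefore given as a description with no test, and the members are tested only between cells of the same library. The study profiled sorted iNKT cells from liver, spleen and lymph node with 10x Genomics 3′ single-cell libraries, in which each captured molecule carries a unique molecular identifier (UMI). Each organ had 2 libraries, which the study calls biological repeats, so n = 2 per organ throughout. The mice of all groups were C57BL/6, WT and 5 weeks old. CD8 and B220 positive cells had been removed, and the remainder was sorted by staining with CD1d tetramer and anti-TCR-β. Neither the sex nor the number of mice behind a library is given in the labels, which name the molecule as nuclear RNA.

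Ikaros family proteins bind DNA through zinc fingers near the N terminus and pair with each other through a second set of fingers at the C terminus. In lymphocytes they work largely by bringing chromatin regulators such as the NuRD nucleosome remodelling and deacetylase complex to their sites, and they are known for their part in lymphocyte development and in the choice of T helper fates. Ikzf1 encodes Ikaros, Ikzf2 Helios, Ikzf3 Aiolos and Ikzf5 Pegasus. Helios is widely used as a marker of regulatory T cells, and Aiolos is known from B cells and from T helper 17 cells. The fifth gene of the family, Ikzf4 (Eos), was not a member and had only 106 UMIs in all cells.

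On GRCm38, Ikzf1 (ENSMUSG00000018654) lies on the plus strand at chr11:11685003-11772926 and Ikzf2 (ENSMUSG00000025997) on the minus strand at chr1:69531214-69687245. Ikzf3 (ENSMUSG00000018168) occupies chr11:98464902-98546031 and Ikzf5 (ENSMUSG00000040167) chr7:131388652-131410521, both on the minus strand. The Ikzf5 locus overlaps Pstk on the opposite strand, for which 1116 UMIs were counted against 1183 of Ikzf5. The strand setting of the counting is not given in the sources used here, so reads in that overlap cannot be assigned with certainty. Summed over the 6 libraries there were 6680 UMIs of Ikzf1, 6002 of Ikzf2 and 3839 of Ikzf3.

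After filters on gene number and mitochondrial share, 16532 of 16587 barcodes remained, with 2638 to 2861 cells and 4758138 to 10870838 UMIs in a library. Liver libraries were deeper, with medians of 3592 and 2880 UMIs per cell against 1470 to 1730.5 elsewhere. T cell transcripts (Cd3d, Cd3e and Cd3g) summed to 4271 to 5527 counts per 1000000 UMIs of a library (CPM), and the summed lists of B cell, CD8 T, NK and hepatocyte markers reached at most 17.2, 6.99, 7.32 and 4.00 CPM. The myeloid list reached 196 to 355 CPM, of which Cst3 made up 190 to 267, and Lyz2 was at 107 CPM in lymph node replicate 2 against at most 17.7 in the other libraries. The regulatory T list reached 18.7 to 67.5 CPM. Its defining gene Foxp3 was found in 3 cells, while Il2ra, which activated T cells also express, was at 56.9 and 55.8 CPM for liver, 16.4 and 17.1 for spleen and 30.6 and 37.3 for lymph node. The part of these transcripts in the levels below was not tested. No Xist UMI was counted in either lymph node library, whereas 5401 to 10404 were counted in each liver and spleen library, so that sex and organ cannot be told apart in any comparison with lymph node. Type 17 marker transcripts reached 1050 and 1091 CPM in lymph node, where liver had 238 and 291 and spleen only 130 and 98.0.

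Among the 4 members, Helios transcripts differed most between the organs. Scaled with TMM (edgeR's correction for composition), Ikzf2 stood at 142 and 135 CPM in liver replicates 1 and 2, at 279 and 319 for spleen and at 264 and 255 for lymph node. Both liver libraries lay below the other 4, and the spleen libraries lay above the lymph node libraries without overlap. The mean was 138 ± 5.54 (SD, n = 2) for liver, while spleen had 299 ± 28.3 and lymph node 259 ± 6.24. The fitted log2 ratio was -1.11 (SE 0.115) for liver over spleen, -0.91 (SE 0.115) for liver over lymph node and 0.21 (SE 0.114) for spleen over lymph node. In bulk sums of this kind, fewer cells with the transcript and less transcript per cell cannot be told apart.

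Pegasus transcripts were also lowest in liver, at low counts. Liver replicates 1 and 2 had 30.6 and 36.0 CPM of Ikzf5, spleen 44.6 and 49.3, lymph node 47.1 and 58.1. The liver libraries were again the lowest, while those of spleen and lymph node overlapped. The log2 ratio was -0.50 (SE 0.154) for liver over spleen and -0.66 (SE 0.152) for liver over lymph node. When every cell was thinned to 1000 UMIs these ratios were -0.18 and -0.31.

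Ikaros itself varied little. Ikzf1 measured 249 and 240 CPM for liver, where spleen gave 207 and 215 and lymph node 222 and 259. The spleen libraries were the lowest, and the lymph node libraries spread across the range of the liver libraries. The log2 ratio was 0.21 (SE 0.114) for liver over spleen, 0.02 (SE 0.114) for liver over lymph node and -0.19 (SE 0.116) for spleen over lymph node.

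Aiolos transcripts were highest in lymph node. Ikzf3 reached 155 and 177 CPM there, beside 137 and 124 for liver and 119 and 102 for spleen, with no overlap between any pair of organs. The log2 ratio was 0.24 (SE 0.122) for liver over spleen, -0.35 (SE 0.119) for liver over lymph node and -0.59 (SE 0.124) for spleen over lymph node. Across all genes tested, edgeR's quasi-likelihood test called 25.8% for liver against spleen, 37.5% for liver against lymph node and 18.2% for spleen against lymph node at an adjusted p below 0.05. These shares are the background for the genes of the partner lists below, and nothing is read from them about the members.

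**Figure D1:**
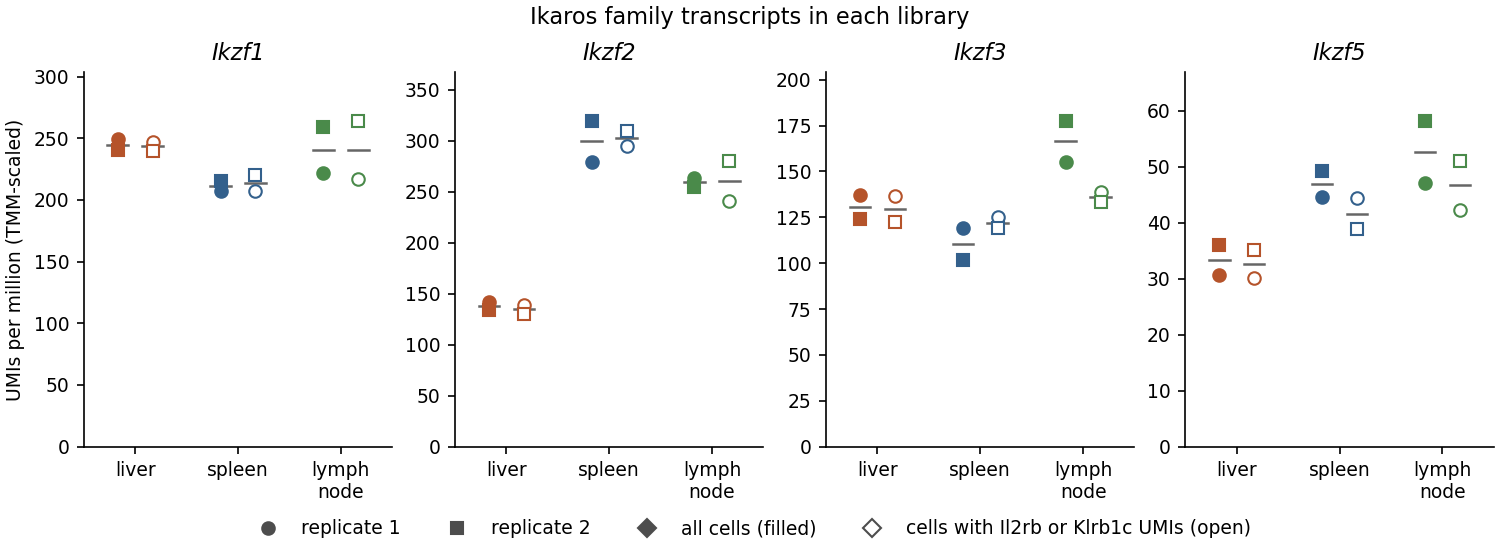
Each panel plots 1 gene's CPM (TMM-scaled, linear axis from 0) for the 2 libraries of each organ, filled for all cells and open for cells with Il2rb or Klrb1c UMIs, with a line at the mean of 2. Ikzf2 is lower in both liver libraries (142 and 135) than in the other 4 in both populations, while the high lymph node values of Ikzf3 in all cells (155 and 177) stand beside 139 and 133 in the gated cells, all at full depth (123 and 208 in gated cells thinned to 1000 UMIs).

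The same levels were read in cells with at least 1 UMI of Il2rb or Klrb1c. Both genes mark iNKT1 cells, Il2rb as the receptor chain for interleukin 2 and interleukin 15 and Klrb1c as the gene of the NK1.1 antigen. There were 8230 such cells, 86.1% ± 2.94 of a liver library (SD, n = 2) but 42.6% ± 5.69 of one from spleen and 19.4% ± 1.62 of one from lymph node. The gate is read from UMIs, so deeper libraries pass more of their cells.

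In gated cells Ikzf2 kept its order. Spleen was at 295 and 310 CPM, lymph node at 241 and 280 and liver at 139 and 130, and the log2 ratio was -1.16 (SE 0.127) for liver over spleen and -0.95 (SE 0.138) for liver over lymph node. Cells with UMIs of neither gene gave -0.82 and -0.64. Liver was thus the lowest organ for Helios transcripts inside and outside the gate.

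Ikzf3 in gated cells differed between full depth and thinned cells. With all UMIs, lymph node was at 139 and 133 CPM, liver at 136 and 122 and spleen at 125 and 119, with overlap between liver and each of the other organs. The log2 ratio was -0.07 (SE 0.152) for liver over lymph node and -0.16 (SE 0.163) for spleen over lymph node. With cells thinned to 1000 UMIs and the gate read again on those UMIs, which left 316 and 299 gated cells of 541 and 519 for lymph node, the ratios were -0.29 and -0.39, and lymph node replicates 1 and 2 were at 123 and 208 CPM, beside 132 and 138 for liver and 140 and 115 for spleen. In cells with UMIs of neither gene, in contrast, the ratio of spleen over lymph node was -0.76.

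Ikzf1 in gated cells measured 207 and 220 CPM for spleen, 217 and 264 for lymph node and 247 and 240 for liver, close to its values in all cells. Gated liver cells had 30.2 and 35.1 CPM of Ikzf5, those of spleen 44.4 and 38.9, those of lymph node 42.3 and 51.0. The log2 ratio of Ikzf5 for liver over spleen was -0.36 (SE 0.187) here and turned to 0.15 when every cell was reduced to 1000 UMIs and the gate read again, so its direction between these organs depended on that setting.

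Shares of cells with a transcript were read at full and at equal depth. With all UMIs, an Ikzf1 UMI was found in 42.2% ± 5.65 of liver cells (SD, n = 2), but in 23.8% ± 0.246 of spleen cells and 26.1% ± 1.09 of lymph node cells. Each cell was therefore thinned at random to 1000 UMIs, which left out 9 liver, 313 spleen and 753 lymph node cells below that depth. At equal depth the shares with an Ikzf1 UMI were 16.5% and 15.5% for liver, 14.0% and 13.2% for spleen, and 14.1% and 18.8% for lymph node. The 2 lymph node libraries differed from each other by more than any pair of organ means.

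The thinned shares of Ikzf2 were 17.6% and 18.5% for spleen, 17.8% and 16.0% for lymph node, but 8.53% and 8.06% for liver. The exact binomial 95% intervals, which cover counting error only, ran from 7.09% to 9.63% over both liver libraries and from 14.6% to 20.1% over the other 4. At this depth most cells with the transcript held 1 UMI, so the share follows the mean level and does not separate fewer cells from less transcript per cell. With all UMIs, where liver cells were deeper, the mean shares were 23.2% (liver), 29.5% (spleen) and 26.6% (lymph node).

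Thinned lymph node cells showed Ikzf3 in 10.5% and 13.8%, those of liver in 8.96% and 8.87% and those of spleen in 8.39% and 7.20%. For Ikzf5 the shares were 3.46% and 3.94% (lymph node), 2.28% and 3.09% (liver) and 3.29% and 3.06% (spleen). The Ikzf5 libraries of liver and spleen overlapped. Most cells showed no member at this depth, between 56.5% and 68.4% in a library, and at most 0.0387% of a library (1 of the spleen libraries) showed all 4.

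**Figure D2:**
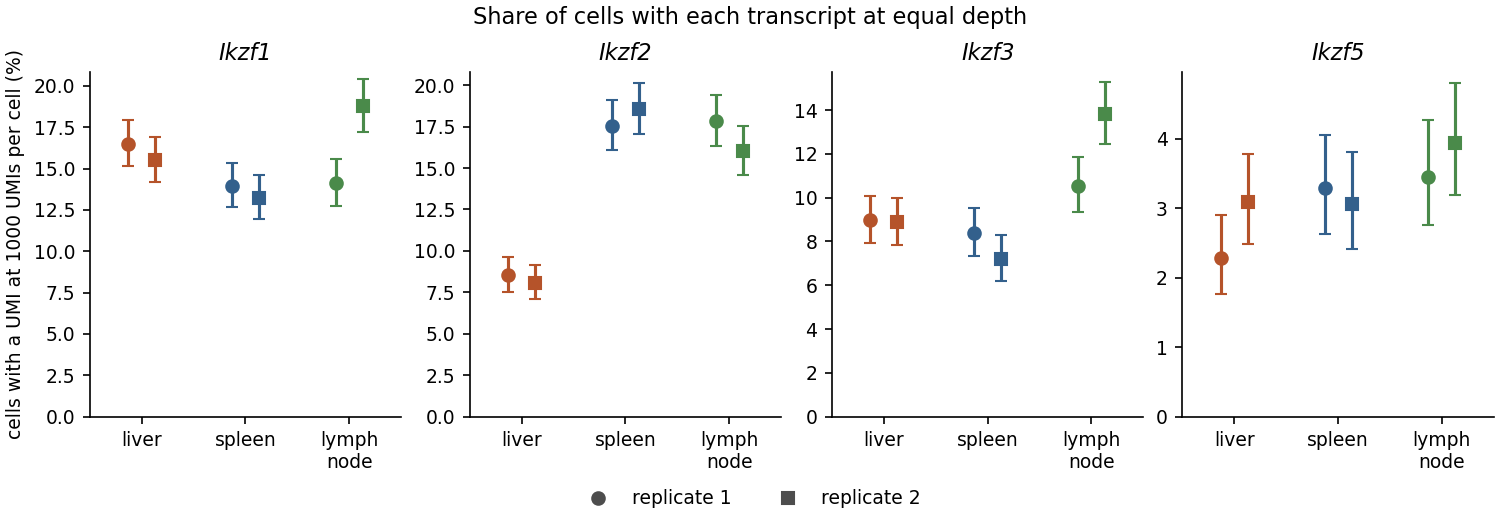
Each panel plots the percent of cells with at least 1 UMI of a gene after every cell was thinned to 1000 UMIs, for each library of 3 organs (axes from 0), with exact binomial 95% intervals that cover counting error only. The liver libraries stand apart for Ikzf2 (8.53% and 8.06%), and the lymph node libraries are the highest for Ikzf3 (10.5% and 13.8%).

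Cells with UMIs of 2 members were counted and set beside the number their separate shares would give. Over thinned cells, Ikzf1 and Ikzf2 UMIs met in 326 cells, where the product of the shares within each library gives 330. Ikzf2 and Ikzf3 met in 211 cells against 210, and Ikzf1 and Ikzf3 in 223 against 231. The ratio of observed to expected cells was lowest for Ikzf1 with Ikzf5, at 0.851 on 64 cells, with 0.758 to 0.974 over the 6 libraries, and was 0.861 on 41 cells for Ikzf3 with Ikzf5. Libraries of other pairs fell on both sides of 1, from 0.623 to 1.17 for Ikzf1 with Ikzf3.

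The same question was then put as a test within libraries. UMIs of thinned cells with and without a member's UMI were summed in each library and compared with edgeR's quasi-likelihood test, with the library as a block and the gating gene left out. Between cells with and without Ikzf2 UMIs, the log2 fold was -0.05 for Ikzf1 (95% interval -0.22 to 0.12, adjusted p = 0.984) and -0.0088 for Ikzf3 (-0.22 to 0.20, adjusted p = 0.997). Between cells with and without Ikzf1 UMIs the fold of Ikzf3 was -0.05 (interval -0.25 to 0.15, adjusted p = 0.988). With all UMIs in place of thinned ones, Ikzf3 (-0.23, adjusted p = 0.00136) and Ikzf2 (-0.14, adjusted p = 0.0332) were both called lower in cells with Ikzf1 UMIs. That setting called 901 genes in this comparison, beside 6 with thinned cells. Cells with Ikzf1 UMIs were then deeper in every library, for example with medians of 3826 against 3400.5 UMIs in liver replicate 1 and 1770 against 1506 in spleen replicate 2. The thinned fold of Ikzf5 was -0.26 in cells with Ikzf1 UMIs (interval -0.63 to 0.12, adjusted p = 0.988, lower in 5 of 6 libraries) and -0.27 in cells with Ikzf3 UMIs (-0.72 to 0.19, adjusted p = 0.956, lower in 4 of 6). The p-values rest on a spread estimated over these 6 libraries with information shared between genes, not on each gene's own spread alone.

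Other genes were called beside Helios transcripts. Between cells with and without Ikzf2 UMIs, 17 of 8531 genes were called (0.199% of those tested), and 6 to 17 with libraries left out in turn. By the rule for named genes (called, at least 20 CPM and the same direction in 6 of 6 libraries), 4 were higher and 3 lower. The higher genes were Maf, a transcription factor of interleukin 4 and interleukin 10 producing T cells (log2 fold 0.34, SE 0.0818, adjusted p = 0.0186), the costimulatory receptor gene Icos (0.28, SE 0.0557, adjusted p = 0.00113), the interleukin 7 receptor gene Il7r (0.22, SE 0.0503, adjusted p = 0.0124) and Ltb, which encodes lymphotoxin β (0.17, SE 0.0323, adjusted p = 0.000499). The lower genes were Cdkn2d, an inhibitor of cyclin-dependent kinases (-0.73, SE 0.164), Klf2, a transcription factor of T cell trafficking (-0.40, SE 0.0934), and S100a6 (-0.19, SE 0.0449), with adjusted p of 0.0111, 0.0124 and 0.0124.

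Of these 7, Maf and Icos were also called with all UMIs of each cell (0.36 and 0.33). The other 5 were not, with Il7r at 0.14, Ltb at 0.0038, Klf2 at -0.14, Cdkn2d at -0.05 and S100a6 at 0.12, the opposite direction. DESeq2 called 0 of the 7, nor any gene named below for Ikzf3 and Ikzf1.

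Between cells with and without Ikzf3 UMIs, 12 of 8702 genes were called (0.138%), and 1 to 18 with libraries left out in turn. Lmo4, which encodes a LIM domain adaptor, was higher (0.36, SE 0.0680, adjusted p = 0.000471, in 6 of 6 libraries), also with all UMIs (0.26). Klra1, an NK receptor gene (-0.84), 2810417H13Rik (-0.82), Stmn1, a regulator of microtubules in dividing cells (-0.71), Ifit1, an interferon response gene (-0.57), and Ptma (-0.15) were lower in 6 of 6 libraries, with adjusted p from 0.00102 to 0.0329. With all UMIs edgeR called 0 of these 5 lower genes. Klra1 was then at -0.08 and Ifit1 at -0.19, while 2810417H13Rik (0.44), Stmn1 (0.46) and Ptma (0.05) had the opposite direction. For Ikzf1, 6 of 8523 genes were called (0.0704%), and 2 to 6 with libraries left out in turn. Only Cd74, the invariant chain of MHC class II, met the rule (-1.03, SE 0.198, adjusted p = 0.000876), but with all UMIs it was at -0.52 and not called (adjusted p = 0.411).

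Next, the members were compared between marker-defined cells of the same library. Cells with Il2rb or Klrb1c UMIs were set against cells with neither, where 136 of 8436 genes (1.61%) were called. Of the 4 members 0 were called in edgeR, and 0 had an unadjusted p below 0.05. The log2 fold was -0.05 for Ikzf2 (95% interval -0.20 to 0.09, adjusted p = 0.917), -0.01 for Ikzf1 (-0.15 to 0.13), 0.01 for Ikzf3 (-0.17 to 0.18) and -0.03 for Ikzf5 (-0.34 to 0.28). The gate was read on the thinned UMIs, where 50.6% and 45.5% of liver cells had neither gene against 11.8% and 15.9% at full depth, so most liver cells counted as having neither did hold UMIs of the gate before thinning.

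Cells with at least 2 genes of a type 17 list (such as Il23r, the interleukin 23 receptor gene, and Ccr6, a chemokine receptor gene) and no Il2rb or Klrb1c UMI were 25.7% ± 0.519 of a lymph node library (SD, n = 2), whereas liver had 1.13% ± 0.483 and spleen 1.71% ± 0.229. In the thinned cells used for the test they were 19.5% ± 2.08 for lymph node, 1.11% ± 0.211 for liver and 0.788% ± 0.0340 for spleen. The other side of the test was the cells with Il2rb or Klrb1c UMIs and under 2 type 17 genes, 302 and 277 thinned cells for lymph node against 316 and 299 in the whole Il2rb or Klrb1c gate. Between these, 367 of 6197 genes (5.92%) were called and 0 of the 4 members, 0 of them with an unadjusted p below 0.05. The log2 fold of Ikzf3 was 0.24 (95% interval -0.24 to 0.72, adjusted p = 0.734). With libraries left out in turn it ran from -0.14 to 0.38. In lymph node, where most of these cells were, Ikzf3 was at 239 and 340 CPM in type 17 marker cells against 139 and 240 on that other side, higher in both libraries. These levels carry the scaling of this comparison, and those of the whole gate given above another. The liver and spleen libraries held 7 Ikzf3 UMIs of such cells between them and ranged from 43.9 to 154.

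With all UMIs of each cell in place of thinned ones, the fold of Ikzf3 was 0.56 and was called (adjusted p = 0.000456). All UMIs also called more genes in this comparison than thinned ones did, with the counts given below. The plain levels were 218 and 275 CPM in type 17 marker cells of lymph node and 136 and 131 in the whole Il2rb or Klrb1c gate, which for lymph node holds 541 and 519 cells, while the fold was fitted on the 456 and 455 of them with under 2 type 17 genes. In liver, 213 and 111 were found on 21 UMIs, and in spleen 162 and 48.2 on 19. When all cells with 2 or more type 17 genes were left out, the organ ratio of Ikzf3 over all cells moved from -0.35 to 0.0050 for liver over lymph node and from -0.59 to -0.28 for spleen over lymph node. The cells left out, with or without Il2rb or Klrb1c UMIs, were 28.4% of a lymph node library, 9.57% of a liver library and 2.22% of a spleen library. This setting was chosen after the data had been seen.

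The other members were tested in the same cells. Ikzf2 in thinned type 17 marker cells of lymph node stood at 330 and 310 CPM, beside 327 and 295 on the other side, and its test within libraries gave -0.15 (95% interval -0.59 to 0.28, adjusted p = 0.840). With all UMIs the fold was 0.08 (adjusted p = 0.831), the opposite sign, and the lymph node libraries were at 262 and 282 CPM beside 235 and 275 in the whole gate. Ikzf1 gave -0.39 (-0.83 to 0.06, adjusted p = 0.438), and with all UMIs -0.37 (adjusted p = 0.0212). Ikzf5 gave -0.29 (-1.09 to 0.51, adjusted p = 0.839) on 37 UMIs.

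**Figure D3:**
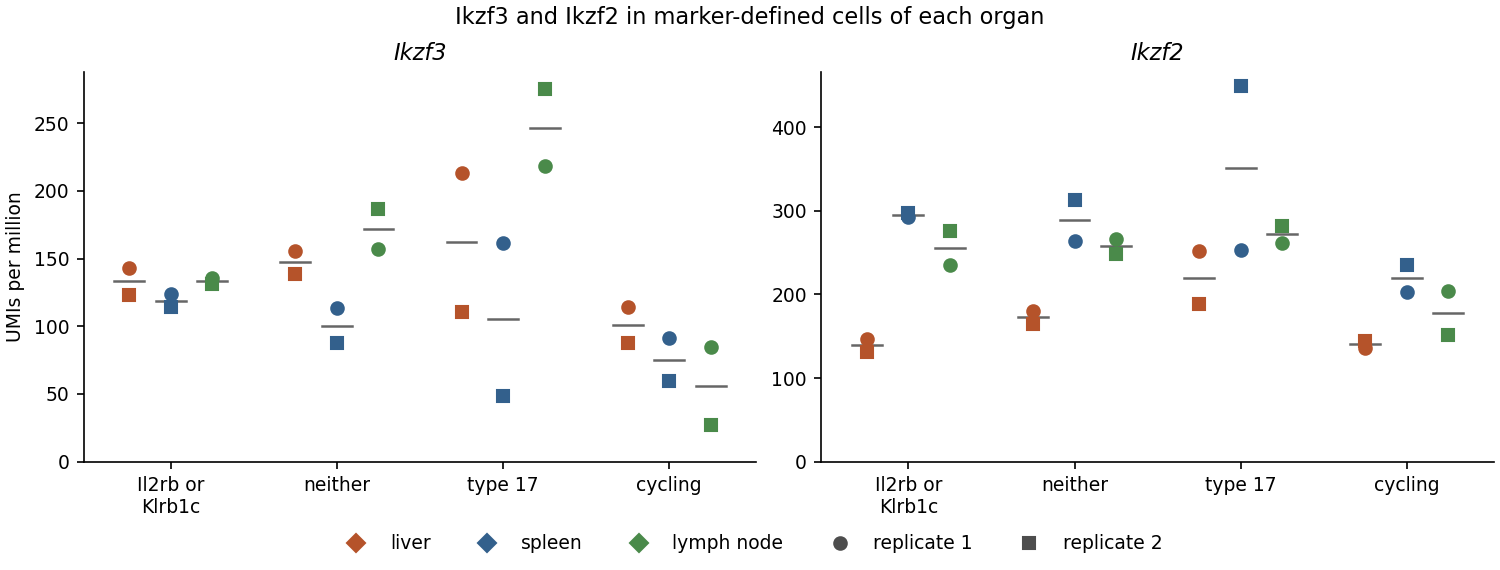
CPM of Ikzf3 (left) and Ikzf2 (right), with all UMIs of each cell and axes from 0, in Il2rb or Klrb1c cells, cells with neither, type 17 marker cells and cycling marker cells of each library, with lines at the mean of 2 libraries. Ikzf3 in lymph node is higher in type 17 marker cells (218 and 275) than in Il2rb or Klrb1c cells (136 and 131), and is lower in cycling marker cells than in Il2rb or Klrb1c cells of the same library, while both liver libraries have the lowest Ikzf2 in each of these 4 populations, most narrowly in type 17 marker cells (252 for a liver library and 253 for a spleen library).

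Cells with at least 2 cycling genes (such as Mki67 and Top2a) were compared with cells that had none. The test called 964 of 8599 genes (11.2%), and the median log2 fold over all genes was -0.45, so that folds are to be read against that shift. Ikzf3 fell by 1.54 on the log2 scale (SE 0.390, 95% interval -2.30 to -0.77, adjusted p = 0.00175), which was -1.09 relative to the median gene, and was lower in 6 of 6 libraries. Its levels ranged from 0 to 87.9 CPM in cycling marker cells and from 132 to 240 in the others, with no overlap. The cycling side rests on 13 Ikzf3 UMIs in 268 thinned cells. With all UMIs the fold was -0.74 (adjusted p = 0.000527), -0.65 relative to the median gene.

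The call on Ikzf3 in cycling cells was lost with DESeq2 (-1.25, adjusted p = 0.112), under which the share of higher genes among those called rose from 32.0% to 74.9%, and without lymph node replicate 2 (-1.15, adjusted p = 0.0683), where the cycling cells had no Ikzf3 UMI. Ikzf1 gave -0.60 (95% interval -1.11 to -0.09, adjusted p = 0.119, lower in 6 of 6 libraries), Ikzf2 -0.44 (-0.95 to 0.08, adjusted p = 0.301) and Ikzf5 -0.52 (-1.61 to 0.56, adjusted p = 0.589). With all UMIs Ikzf2 was called at -0.29 (adjusted p = 0.0117). The tested cycling cells were also deeper before thinning, with library medians of 5081.5 to 7591 UMIs per cell against 1582 to 3563 in the cells without cycling genes.

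Cells with at least 2 homing genes (such as Ccr7, S1pr1 and Lef1) and no Il2rb or Klrb1c UMI were too few in liver for a comparison, with 9 thinned cells, so the 4 libraries of spleen and lymph node were used, against Il2rb or Klrb1c cells with under 2 homing genes. Of 3069 genes, 61 (1.99%) were called. Ikzf2 was lower in 4 of 4 libraries (-0.94, 95% interval -1.69 to -0.19, adjusted p = 0.273) and so was Ikzf3 (-1.53, -2.87 to -0.19, adjusted p = 0.362), on 12 and 4 UMIs in the homing cells. Neither was called, and Ikzf5 was too sparse to test. With all UMIs the fold of Ikzf3 was -0.64 and was called (adjusted p = 0.0343). The fold of Ikzf2 was then -0.31 (adjusted p = 0.296), and spleen replicate 2 had 310 CPM in homing marker cells against 297 in all Il2rb or Klrb1c cells.

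**Figure D4:**
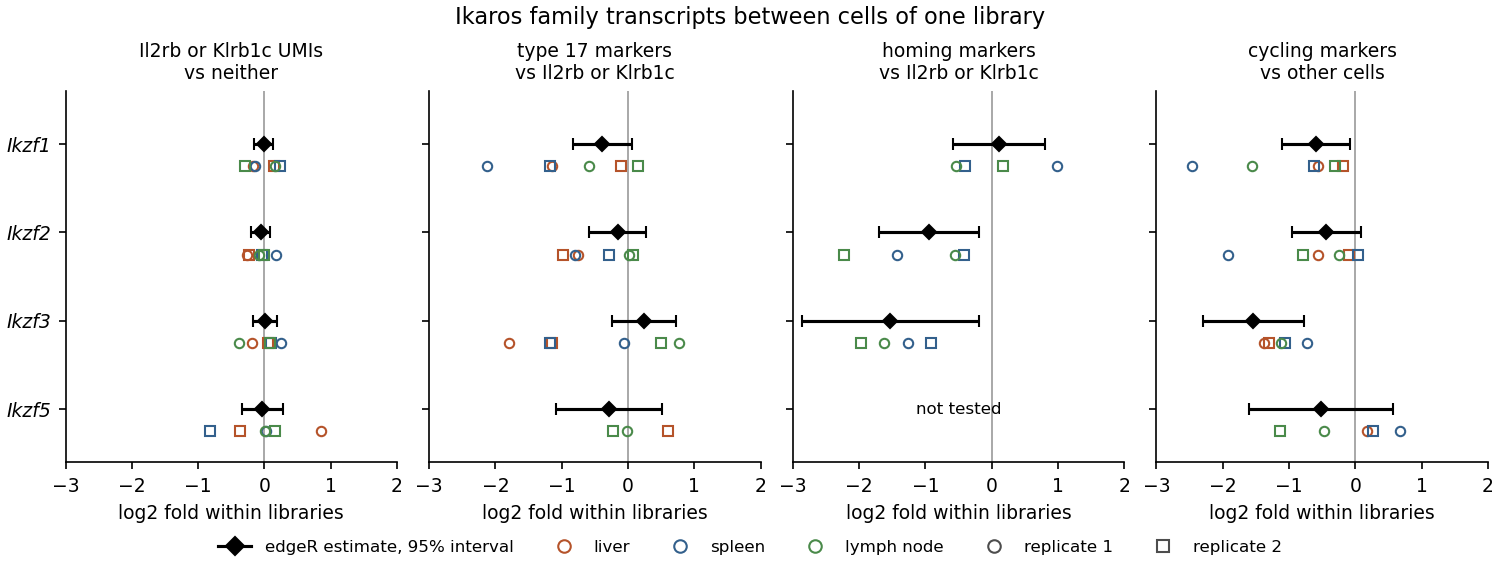
Log2 folds of each member between marker-defined cells of the same library at 1000 UMIs per cell, 1 panel per comparison; black diamonds are edgeR estimates with 95% intervals and open symbols are single libraries (libraries with no UMI on the marker side are left out). All intervals in the first panel include 0 (-0.05 for Ikzf2), and Ikzf3 in cycling marker cells (-1.54) is the only called value.

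Genes whose pattern over the 6 libraries was most like that of each member were found by the root mean square difference of centred log2 levels among 5901 genes. For Ikzf2 they were S1pr1, the receptor that guides T cells out of tissue, Tm2d1, Emc9, Phpt1 and Gm15417, with differences of 0.0772 to 0.106. S1pr1, for example, averaged 25.5 CPM for liver, 53.7 for spleen and 49.9 for lymph node. For Ikzf3 the nearest were Zfp942, Crtc3, Cyth1 and Pcmtd1 (0.0452 to 0.0774), for Ikzf1 Plaa, Lypla1, Stap1, Tpp2 and Zdhhc21 (0.0183 to 0.0474) and for Ikzf5 Lmbrd1, Ewsr1, Yae1d1, Parp8 and Capza2 (0.0287 to 0.0473). With 6 libraries that share organ, sex and depth, such likeness is a description.

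Partners and genes linked to the family were followed between organs from lists chosen with earlier results known. Of the 13 NuRD genes, 2 of 13 tested were lower in liver than in spleen and none was higher (15.4% called beside 25.8% of all genes). These were Rbbp7 and Rbbp4, both histone-binding subunits (log2 fold -0.55 and -0.39, adjusted p = 0.00865 and 0.0109). Against lymph node, liver was higher in Chd3 (0.51), Chd4 (0.39) and Gatad2a (0.37) and lower in Mbd3 (-0.68) and Rbbp7 (-0.59), 38.5% called beside 37.5%. Between spleen and lymph node Chd3 (0.43) was higher and Mbd3 (-0.63) lower in spleen, 15.4% beside 18.2%. The median log2 fold of the NuRD genes was 0.08, 0.06 and 0.08 in these 3 comparisons, beside 0.02, 0.01 and 0.0035 over all genes.

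Among 11 genes of other corepressors and SWI/SNF remodellers, 18.2% were called for liver against spleen and 27.3% for liver against lymph node, beside 25.8% and 37.5% of all genes. Arid1a was higher in liver than in spleen (0.36, adjusted p = 0.0264) and lymph node (0.66, adjusted p = 6.6e-05), and Smarcd1 was lower in liver in both comparisons (-0.35 and -0.50). Smarcb1 was also lower in liver than in lymph node (-0.34). When spleen was set against lymph node, edgeR called 0 of these 11 genes, 2 of which had an unadjusted p below 0.05, beside 18.2% of all genes called. Of the 5 genes of the cereblon ligase, the ubiquitin ligase that degrades Ikaros and Aiolos when bound by thalidomide analogues, Ddb1 was higher (0.56) and Rbx1 lower (-0.37) in liver than in spleen, and Cul4b was lower in liver than in lymph node (-0.62), or 40.0% and 20.0% of the list. Here too 0 genes were called for spleen against lymph node in edgeR, and 0 had an unadjusted p below 0.05.

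The list of genes linked to Ikaros proteins in T cells had 11 of 15 genes tested. Liver was higher than spleen in 4 and lower in 4, and higher than lymph node in 5 and lower in 3. Spleen was higher than lymph node in 4 and lower in 2. The called shares were 72.7%, 72.7% and 54.5%, beside 25.8%, 37.5% and 18.2% of all genes. The list was chosen with earlier results of these data known, and nothing is read from these shares about the family. The survival gene Bcl2 was higher in liver by a log2 fold of 2.78 over spleen and 3.28 over lymph node, at a mean of 630 ± 176 CPM (SD, n = 2) against 91.6 ± 4.61 and 64.7 ± 3.44. Il7r had the opposite order, from 258 ± 0.428 for liver over 562 ± 55.9 for spleen to 1115 ± 18.5 for lymph node, and Il2, the cytokine gene that Aiolos is known to repress, was lower in liver than in spleen (-0.66) and lymph node (-0.79). Tbx21, the master regulator of type 1 cells, was higher in liver (2.08) and spleen (1.60) than in lymph node. Ifng, the type 1 cytokine gene, was higher in liver than in spleen (0.96) but lower in spleen than in lymph node (-0.82, adjusted p = 0.0414). Of the Notch pathway genes, Notch1 was higher in liver than in spleen (1.04), and the Notch target Dtx1 was higher in liver (1.54) and spleen (1.68) than in lymph node. Ptcra, the pre-T cell receptor chain, was lower in liver than in spleen (-1.53, adjusted p = 0.00591), at a mean of only 2.68 ± 0.774 CPM against 7.75 ± 3.63 (SD, n = 2). The coreceptor gene Cd4 was higher in spleen than in lymph node (0.66), and Gata3, a transcription factor of type 2 cells, was lower in liver than in lymph node (-0.36). The 3 comparisons share their libraries, and the part of depth, sex and marker populations in these values was not tested.

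The partner genes were also tested within libraries with edgeR. For the 28 NuRD, corepressor and cereblon ligase genes tested, Il2rb or Klrb1c cells against cells with neither gave 0 calls. Of all genes 1.61% were called there, and 3 of the 28 had an unadjusted p below 0.05. The comparisons of cells with and without UMIs of Ikzf1, Ikzf2 and Ikzf3 also called 0 of 28, with 1, 3 and 2 below that unadjusted p. Their all-gene shares were 0.0704%, 0.199% and 0.138%. Counts of 0 are near these shares, and nothing is read from them about the partners. In cycling marker cells 3 of 28 were called (10.7%, beside 11.2% of all genes). Rbbp7 was higher (0.78, adjusted p = 0.0167), and Chd3 (-1.17, adjusted p = 0.00106) and Crbn, the substrate receptor of the ligase (-1.61, adjusted p = 0.0247), were lower. Relative to the median gene these folds were 1.23, -0.73 and -1.17. Of the linked genes, 4 of 9 were called in type 17 marker cells (44.4%, beside 5.92% of all genes). Il7r was higher there (0.79, adjusted p = 0.000243, in 4 of 6 libraries). Ifng (-3.31) and Bcl2 (-1.21) were lower in 6 of 6 libraries and Tbx21 (-1.93) in 5 of 6. The list was chosen with earlier results of these data known. It holds the type 1 genes Ifng and Tbx21, while Il2rb and Klrb1c, which define the other side, mark iNKT1 cells. Nothing is read about the family from this share or from those of the other comparisons.

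In Il2rb or Klrb1c cells 3 of 10 linked genes were called (30.0%, beside 1.61%), with Bcl2 higher (0.53, 6 of 6 libraries) and Il7r (-0.31) and the Notch target Hes1 (-2.02) lower than in cells with neither (5 of 6 libraries each). In cycling marker cells it was also 3 of 10 (30.0%, beside 11.2%), with Bcl2 (-2.17), Il7r (-1.73) and Ifng (-1.22) lower, or -1.72, -1.29 and -0.77 relative to the median gene. Ifng was the 1 of 7 called in homing marker cells (14.3%, beside 1.99% of all genes), at -2.73 (adjusted p = 0.0423) and lower in 3 of 4 libraries. Beside the higher Il7r given above, Bcl2 was lower in cells with Ikzf2 UMIs (-0.36, adjusted p = 0.0389, in 4 of 6 libraries). DESeq2 called neither, and Il7r was not called with all UMIs. For Ikzf1 and Ikzf3 UMIs edgeR called 0 of 10 linked genes, beside 0.0704% and 0.138% of all genes, with 1 in each below an unadjusted p of 0.05.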

How the data were processed

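The libraries were of the 10x Chromium type with version 2 3′ chemistry, made by the authors from sorted iNKT cells. They aligned reads, per the labels and the study's methods, to mm10 and counted UMIs with Cell Ranger 3.1.0. The deposited matrices hold raw UMI counts per gene and barcode, not normalised. The deposited gene and barcode lists hold other values, namely identifiers. The version of the gene annotation is not given in the sources used here, so positions come from GENCODE vM21 (GRCm38), matched on Ensembl identifiers.

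A barcode was kept with 300 to 4000 genes and at most 15% mitochondrial UMIs, which dropped 55 barcodes, and 109 genes of ribosomal proteins, ribosomal RNA and haemoglobin were removed. No doublets were removed in the main setting. Between 6 and 20 barcodes were shared by each pair of libraries. UMIs were summed per library, since cells are not replicates, and fitted with edgeR 4.0.16 in R 4.3.3 (TMM, filterByExpr, robust quasi-likelihood test, Benjamini-Hochberg adjustment over all genes tested, called below 0.05). The organ fits used organ alone over 6 libraries. Within-library comparisons used cells thinned to 1000 UMIs with the library as a block, libraries with at least 10 cells on both sides, and matrices without the gating genes. The scripts were tested on simulated data. The members, lists and marker sets were chosen with earlier results of these data known.

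Named genes were, from each partner list, up to 3 called genes per direction with the largest folds; between cells with and without UMIs of a member, the 5 highest and 5 lowest called genes with at least 20 CPM and 1 direction in every library; and the 5 genes most like each member, of which 1 is not reported here. Alternatives were DESeq2 1.42.0, no filter, other gates, other depths, the replicate block and leaving out cells or libraries.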

Additional observations from a re-analysis of the deposited data

Results flagged for a closer look

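Each value here is a difference between the log2 folds of 2 organs in a comparison within libraries, listed because both libraries of one organ moved one way and both of the other the opposite way. None of these differences was tested.

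Between type 17 marker cells and Il2rb or Klrb1c cells, Ikzf3 was higher in lymph node (mean 0.64 on 179 UMIs) and lower in liver (-1.47 on 3 UMIs) and spleen (-0.62 on 4 UMIs). The differences were -2.11 for liver less lymph node and 1.26 for lymph node less spleen. Ikzf2 in the same comparison was at 0.04 in lymph node (194 UMIs), -0.87 in liver (4 UMIs) and -0.55 in spleen (9 UMIs), with differences of -0.91 and 0.59. With all UMIs of each cell these directions did not hold in all liver and spleen libraries. Ikzf2 was then at 252 and 188 CPM in type 17 marker cells of liver (30 UMIs) against 146 and 132 in all Il2rb or Klrb1c cells, and at 253 and 450 against 292 and 297 in spleen (53 UMIs). Ikzf3 was at 213 and 111 CPM against 143 and 123 in liver (21 UMIs), higher in 1 library and lower in the other, and at 162 and 48.2 against 124 and 114 in spleen (19 UMIs).

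Between cells with and without Ikzf1 UMIs, Ikzf3 was lower in lymph node (-0.43 on 86 UMIs) and higher in liver (0.14 on 93) and spleen (0.12 on 61), with differences of 0.56 for liver less lymph node and -0.54 for lymph node less spleen. Read the other way, between cells with and without Ikzf3 UMIs, Ikzf1 was at -0.45 in lymph node and 0.07 in spleen, a difference of -0.53. Ikzf2 between cells with and without Ikzf1 UMIs was at -0.18 in liver and 0.06 in spleen, a difference of -0.24. Ikzf5 in cycling marker cells was at -0.80 in lymph node (2 UMIs) and 0.47 in spleen (4 UMIs), a difference of -1.27.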

How the results depend on the processing

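Ikzf3 in cycling marker cells, the only member value called in the main setting, was negative in all 11 alternatives. Of 258 member values within libraries, 250 kept their side of the threshold, nearly all of them without a call. Some values not called in the main setting changed sign. Ikzf3 in type 17 marker cells ran from -0.14 to 0.56 and was negative in 2 of 11 alternatives. Ikzf2 with Ikzf1 UMIs ran from -0.14 to 0.0049 and was positive in 2 of 11. Each was called in 1 alternative. Ikzf3 in cycling cells lost its call with DESeq2 (-1.25) and without lymph node replicate 2, with a range of -1.68 to -1.15 over the libraries left out in turn and adjusted p of 0.000527 to 0.112 over all its alternatives. With all UMIs of each cell, calls were gained for Ikzf1 (-0.37) and Ikzf3 (0.56) in type 17 marker cells, Ikzf3 (-0.64) in homing cells, Ikzf2 (-0.29) in cycling cells, and Ikzf2 (-0.14) and Ikzf3 (-0.23) with Ikzf1 UMIs. The count of all genes called also rose in each of these comparisons, as given below. The organ ratios moved by more than the spread between libraries as follows. Thinning gave Ikzf5 -0.18 and -0.31 (liver over spleen and over lymph node), Ikzf1 0.30 (liver over spleen) and Ikzf2 -1.02 (liver over lymph node) in all cells. In gated cells it gave Ikzf2 -1.31, Ikzf5 0.15 and Ikzf1 0.29 for liver over spleen, Ikzf3 -0.29 for liver over lymph node, and Ikzf5 -0.46 and Ikzf3 -0.39 for spleen over lymph node. Leaving out cells with 2 or more type 17 genes gave Ikzf3 0.0050 (liver over lymph node) and -0.28 (spleen over lymph node). Ikzf3 for spleen over lymph node in gated cells was -0.25 without the 2% deepest cells, -0.28 with Il2rb alone and -0.016 with Klrb1c alone, where Ikzf2 was -1.31 (liver over spleen) and -1.20 (liver over lymph node). Cells with neither gave Ikzf2 -0.82 and -0.64, Ikzf3 0.48, -0.28 and -0.76, and Ikzf1 0.30 (liver over spleen). The cause of these shifts was not tested.

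Counts of called genes depended more on the settings. DESeq2 called 1441 (liver and spleen), 1137 (spleen and lymph node), 29 (Il2rb or Klrb1c), 139 (type 17), 12 (homing) and 459 (cycling) genes, and 0 for the gates on Ikzf1, Ikzf2 and Ikzf3, where 90, 149 and 181 had an unadjusted p below 0.05 in DESeq2 and 415, 496 and 524 in edgeR. Its share of higher calls was 46.8% for type 17 (29.2% in edgeR), 41.7% for homing (21.3%) and 74.9% for cycling (32.0%), with an all-gene median of -0.16 in cycling. Thinning gave 1747 for liver and spleen. All UMIs gave 337, 990, 411 and 3174 in the marker comparisons and 901, 510 and 77 for the member gates. No filter gave 149 (homing), 12, 27 and 30 (member gates), and leaving out the deepest cells 588 (cycling).

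Deviations from the organ means correlated at 0.0680 to 0.0861 between same-numbered libraries. With 2 libraries per organ and counting noise in each gene, these values cannot settle whether replicate numbers pair the samples. The main organ fits treated the libraries as unpaired. The replicate block gave 3071, 4174 and 2137 calls between organs, beside 2645, 3850 and 1866 in the main fits. Within libraries, fits with no replicate block (organ in place of library) gave 44 for Il2rb or Klrb1c, 0 for Ikzf1, 0 for Ikzf2 and 2 for Ikzf3.

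With libraries left out in turn, counts ran from 1379 to 2437 (liver and spleen; lowest without liver replicate 1, and 1393 without spleen replicate 2), 2425 to 4052 (liver and lymph node) and 1029 to 1937 (spleen and lymph node), both lowest without lymph node replicate 2. They ran from 69 to 143 (Il2rb or Klrb1c; 69, 77 and 90 without spleen replicates 1 and 2 and lymph node replicate 1), 161 to 352 (type 17; 190 and 161 without lymph node replicates 1 and 2), 31 to 41 (homing; 34, 34 and 31 without spleen replicate 1 and lymph node replicates 1 and 2) and 590 to 820 (cycling; lowest without lymph node replicate 2). The member gates gave 2 to 6 for Ikzf1 (lowest without lymph node replicate 2), 6 to 17 for Ikzf2 (6, 10 and 9 without liver replicate 1, spleen replicate 2 and lymph node replicate 1) and 1 to 18 for Ikzf3 (4 and 1 without lymph node replicates 1 and 2). Depth limits the folds of Ikzf5 and of the small marker populations, and 2 libraries per organ limit every organ ratio.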

Other observations

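Ikzf4, the family gene that was not a member, averaged 4.95 ± 0.157 CPM (SD, n = 2) for liver, 3.83 ± 0.658 for spleen and 1.36 ± 0.398 for lymph node, on 106 UMIs in 105 cells. At 1000 UMIs per cell it was seen in 0.286% and 0.316% of liver cells and 0.155% and 0.362% of spleen cells, while lymph node had 0.0421% and 0.127%, on 1 and 3 cells. The 4 cells with B cell markers and no T cell marker held 1 Ikzf3 UMI and none of Ikzf1, Ikzf2 or Ikzf5. The 3 cells with Foxp3 UMIs held 5 UMIs of Ikzf1, 1 of Ikzf2 and 2 of Ikzf3, too few for a share.

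Cells with many transcripts of a member were rare at full depth. The highest count in 1 cell was 8 UMIs for Ikzf2, in liver replicate 1 and in spleen replicate 2, 7 for Ikzf1 in both liver libraries, 5 for Ikzf3 in both liver libraries and 3 for Ikzf5. At least 2 Ikzf2 UMIs were found in 8.07% and 5.70% of liver cells, beside 7.66% and 7.95% for spleen and 6.44% and 5.65% for lymph node. These shares are at full depth, where liver cells were deeper, so they do not compare the organs at equal depth.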
